A study of Mus musculus with 10 samples.

Results

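The samples described here are hippocampal RNA pools of 3-week-old A-CREB mice given 14 mg/kg kainate, set against pools of A-CREB mice given saline. They were chosen by their titles and paired by replicate number, and they make up 4 of the 10 arrays of the series. The A-CREB kainate 14 mg/kg group and the A-CREB saline group held 2 arrays each, and both carried the strain label TetO-A-CREB-95 C57BL6 F1/J, so the transgene is common to both. The other arrays were 2 of A-CREB mice given 18 mg/kg kainate, 2 of wild-type mice given 14 mg/kg kainate and 2 of wild-type mice given saline, with the strain label C57BL6 F1/J where one was given. Each array held the pooled hippocampi of 3 to 4 mice, from 20 A-CREB and 14 wild-type mice in all, and was an Affymetrix Mouse Genome 430 2.0 array. The line that drives the tet-controlled transgene, the cells in which it is on and the time from injection to dissection are not stated in the labels.

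CREB is a transcription factor that binds the cAMP response element and switches on genes when synaptic activity raises calcium or cAMP in a neuron. A-CREB is a dominant-negative inhibitor that pairs with CREB and keeps it off DNA, and kainate is a glutamate receptor agonist that drives seizures and a wave of immediate-early genes in the hippocampus. Immediate-early genes are transcribed without new protein synthesis, and their products include transcription factors, synaptic proteins and inhibitors of the signals that started them.

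The deposited MAS5 signals, a measure of probe set brightness on a linear scale, had been scaled so that the trimmed mean of every array was 500.002 or 500.003. Median signals nonetheless lay between 94.9 and 106 on the 5 arrays numbered 1 and between 134.6 and 152 on the 5 numbered 2, and each of the 10 arrays lay nearest to one of its own number. Changes were therefore estimated within replicate numbers, on the scale of log2(signal + 22), for 13248 genes with limma fitted to all 10 arrays and p-values adjusted over all 13248. Creb1, the gene of CREB itself, had signals of 1714 and 1884 in A-CREB kainate mice, against 2006 and 1872 in A-CREB saline mice, and its change of -0.11 log2 did not pass (adjusted p = 0.872). The sources used here do not say whether any probe set reads the transgene. The 2 arrays of a group are pools of different mice. Each p-value reflects how much pools varied once the difference shared by replicate numbers was removed, with a gene's variance drawn towards that of genes of like brightness. In bulk tissue fewer cells of a type and less RNA per cell cannot be told apart.

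Kainate at 14 mg/kg was followed in A-CREB hippocampi by a rise of 146 genes, 1.10% of those tested, and a fall of 22 genes, 0.166% of those tested, at an adjusted p under 0.05. All 146 were higher in both pairs and all 22 were lower in both pairs. The rises were large, with a median of 1.38 log2, and 40 genes rose by at least 2 log2. The falls were small by comparison, with a median of -0.92 log2, and 5 of them reached -1 log2. Among all genes tested, 24.8% were higher and 32.6% lower in both pairs, so a shared direction alone was common. A change of at least 2-fold in both pairs was rare, with 104 genes (0.785%) at least 2-fold higher and 8 genes (0.0604%) at least 2-fold lower.

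**Figure D1:**
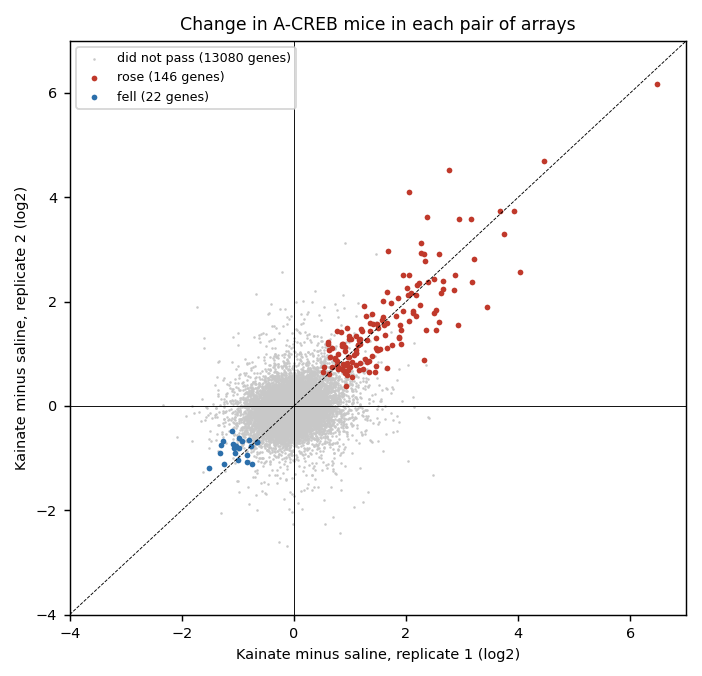
Change of each of 13248 genes (A-CREB kainate 14 mg/kg minus A-CREB saline, log2) in the pair numbered 1 (horizontal axis) and in the pair numbered 2 (vertical axis), with the 146 genes that rose in red, the 22 that fell in blue and the dashed line marking equal change. The red points reach past 6 log2 in both pairs, while the blue points stay close to the cloud of other genes.

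The number of rises and of falls depended on the pairing and on single arrays. Without the replicate block, 41 genes (0.309%) rose, all of them among the 146, and 0 fell. An unadjusted p under 0.05 in limma's test was reached by 658 genes without the block and by 1572 with it. If no gene had changed, 662.4 would be expected at that level, so the count without the block was no higher than that. When an array was left out, 57 genes rose without A-CREB kainate replicate 1, 71 without A-CREB kainate replicate 2, 113 without A-CREB saline replicate 1 and 155 without A-CREB saline replicate 2. The falls numbered 2 without A-CREB kainate replicate 1, 4 without A-CREB kainate replicate 2, 8 without A-CREB saline replicate 1 and 110 without A-CREB saline replicate 2.

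Transcription factors led the response. Of 40 immediate-early transcription factors and regulators tested, 27 rose and 0 fell, with a list median of 1.65 log2, against -0.02 log2 over all genes. Of the 40, 37 were higher in both pairs. The shares over all genes tested were 1.10% risen and 24.8% higher in both pairs. Npas4, a neuron-specific bHLH-PAS factor induced by calcium entry (chr19:4984353-5003439, GRCm38.p6), had signals of 16278 and 12169.7 in A-CREB kainate mice, against 160.1 and 148 in A-CREB saline mice. Both kainate pools stood far above both saline pools, and the estimated change was 6.32 log2 (SE 0.23, adjusted p = 3.20e-09), an 80.2-fold rise. Fosb, an AP-1 subunit (chr7:19302696-19310118), reached 4649 and 3612 after kainate, against 191 and 118 after saline, a rise of 4.58 log2 (SE 0.35, adjusted p = 1.13e-05). Fos, the founding member of that family (chr12:85473890-85477274), gave 20356 and 16819.5 in A-CREB kainate mice, against 1493 and 1688 in A-CREB saline mice, and rose by 3.52 log2 with the smallest SE among the rises named so far (0.17, adjusted p = 9.21e-08). The groups of both AP-1 genes lay far apart, and in each the kainate pool numbered 1 was the higher. Atf3, a stress-induced bZIP factor (chr1:191170296-191183333), had 1642 and 1482 after kainate, against 87.4 and 90.6 after saline (3.83 log2, adjusted p = 3.30e-05). Egr2, a zinc finger factor (chr10:67534469-67542188), had 2175 and 1950.4 after kainate, against 149 and 126 after saline (3.71 log2, adjusted p = 4.39e-05).

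Other members of the immediate-early list rose by less, and 13 of the 40 did not pass, with a lowest change of -0.05 log2. Nr4a2, an orphan nuclear receptor, had 8259 and 8775 after kainate, against 1992 and 2000.4 after saline, a rise of 2.08 log2 (adjusted p = 9.10e-05). Its relative Nr4a3 had 7827 and 8818 after kainate, against 2585 and 2177 after saline (1.80 log2, adjusted p = 6.74e-05). For both receptors the 2 kainate pools were closely matched and stood above both saline pools. Csrnp1, a nuclear protein induced by AXIN1, had 782 and 925 after kainate, against 178 and 176 after saline (2.13 log2, adjusted p = 6.74e-05). Junb, the AP-1 partner that restrains Jun, had 5581 and 2433 after kainate, against 743 and 407 after saline (2.69 log2, adjusted p = 0.000219), and its adjusted p was 0.0646 without the block. Ier2, an immediate-early nuclear protein, had 3076 and 1206 and rose by 2.77 log2 over saline signals of 323 and 215 (adjusted p = 0.000423). Both Junb and Ier2 were brighter in the kainate pool numbered 1 than in the one numbered 2. Maff, a small Maf protein, gave 489 and 483 after kainate, against 84.1 and 43.9 after saline (2.60 log2, adjusted p = 0.00266), and it lost its call without the block (adjusted p = 0.0751) and without A-CREB kainate replicate 2 (adjusted p = 0.0732). Nfil3, a bZIP repressor that also acts on the clock, gave 1246 and 1039 after kainate, against 229 and 132 after saline (2.56 log2, adjusted p = 0.00117). Without the block 15 of the 40 rose, and 20 to 25 rose when 1 array was left out.

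**Figure D2:**
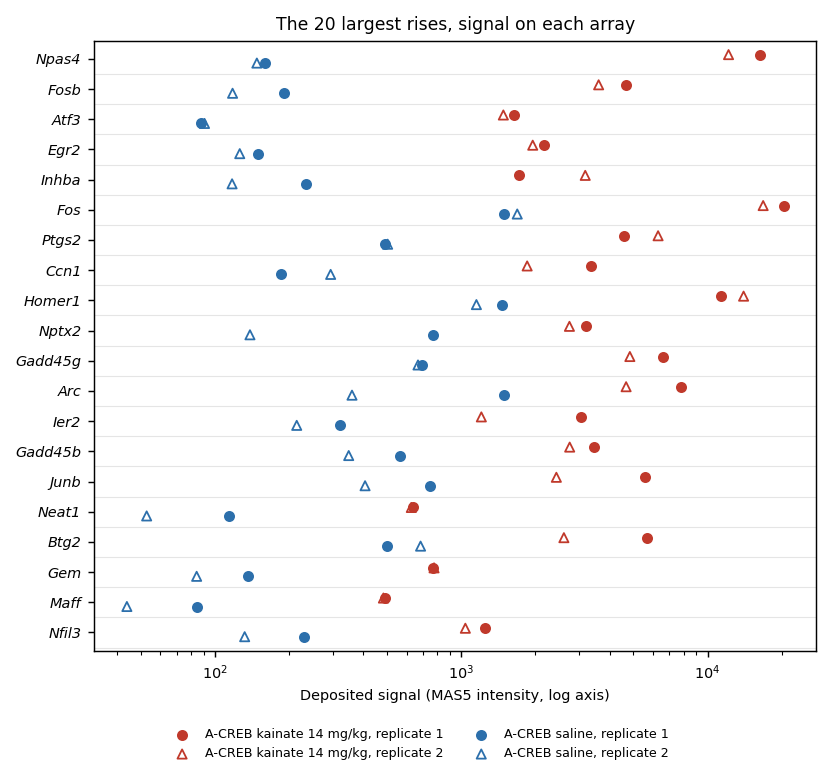
Deposited MAS5 signal (log axis) of the 20 genes with the largest rises and no overlap between the groups, on each A-CREB kainate 14 mg/kg array (red) and each A-CREB saline array (blue), with circles for replicate 1 and triangles for replicate 2. The red points lie to the right of the blue ones in every row, and Npas4 shows the widest gap, with 16278 and 12169.7 after kainate, against 160.1 and 148 after saline.

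The promoters of Npas4, Fosb, Atf3, Egr2 and Fos are shown because they are the largest rises whose promoter holds a short cAMP response element. This short element, TGACG or CGTCA, is part of the full element TGACGTCA, and 34.2% of the tested genes with a promoter in the table held it. None of the promoters shown holds the full element. The element was thus what chose them. Of the 20 largest rises 15 had a promoter in the table and 12 of those held a short element, while Inhba, whose rise of 3.65 log2 lay between those of Egr2 and Fos, Gadd45g and Gadd45b held none of the motifs searched. The sequences are RefSeq promoter windows (GRCm38.p6), from 250 bases before to 50 bases after the annotated start, written 5′ to 3′ on the gene's strand. Capitals mark the short cAMP response element, TGACG or its reverse complement CGTCA, and, in Egr2, also a CArG box, the site of serum response factor. Npas4 is read from chr19:4989922-4990221 on the minus strand and holds 2 short elements, starting 179 and 169 bases upstream of the start.
Npas4: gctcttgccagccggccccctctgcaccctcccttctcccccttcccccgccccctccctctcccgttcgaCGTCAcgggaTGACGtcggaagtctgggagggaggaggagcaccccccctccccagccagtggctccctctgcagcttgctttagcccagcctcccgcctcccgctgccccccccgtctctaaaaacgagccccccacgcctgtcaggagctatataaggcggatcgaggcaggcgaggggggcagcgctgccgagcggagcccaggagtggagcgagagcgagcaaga
Fosb is read from chr7:19309996-19310295 on the minus strand and holds 1 short element, 60 bases upstream.
Fosb: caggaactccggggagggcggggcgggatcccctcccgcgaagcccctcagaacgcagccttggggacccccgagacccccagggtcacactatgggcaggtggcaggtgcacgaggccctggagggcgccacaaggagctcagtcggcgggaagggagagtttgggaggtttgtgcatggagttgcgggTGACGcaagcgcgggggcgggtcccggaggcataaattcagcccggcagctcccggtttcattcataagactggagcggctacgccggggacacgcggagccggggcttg
Atf3 is read from chr1:191183284-191183583 on the minus strand and holds 1 short element, 7 bases upstream.
Atf3: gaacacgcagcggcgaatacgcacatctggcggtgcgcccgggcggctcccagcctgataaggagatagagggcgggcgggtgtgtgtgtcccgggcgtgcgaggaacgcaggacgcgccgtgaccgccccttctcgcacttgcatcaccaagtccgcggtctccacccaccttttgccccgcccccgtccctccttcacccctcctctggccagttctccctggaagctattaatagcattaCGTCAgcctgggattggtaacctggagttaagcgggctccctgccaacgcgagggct
Egr2 is read from chr10:67537619-67537918 on the plus strand and holds short elements 111 and 55 bases upstream, with a CArG box between them, 72 bases upstream.
Egr2: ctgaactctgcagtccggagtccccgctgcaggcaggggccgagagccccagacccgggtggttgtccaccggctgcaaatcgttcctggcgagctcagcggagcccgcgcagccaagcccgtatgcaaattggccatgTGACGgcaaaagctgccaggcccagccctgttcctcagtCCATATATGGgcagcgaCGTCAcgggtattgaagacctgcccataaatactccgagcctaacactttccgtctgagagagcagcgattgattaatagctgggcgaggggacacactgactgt
Fos is read from chr12:85473640-85473939 on the plus strand and holds short elements 129 and 66 bases upstream.
Fos: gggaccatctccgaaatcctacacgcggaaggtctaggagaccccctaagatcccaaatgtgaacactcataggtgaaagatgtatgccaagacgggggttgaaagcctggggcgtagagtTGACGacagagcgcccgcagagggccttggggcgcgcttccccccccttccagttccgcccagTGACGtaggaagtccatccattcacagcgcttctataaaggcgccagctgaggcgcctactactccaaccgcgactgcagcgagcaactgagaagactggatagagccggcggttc
For contrast, the promoters of Zc3h6 and Napepld, both among the falls, are given too. Zc3h6 is read from chr2:128967152-128967451 on the plus strand and holds 1 short element, 127 bases upstream.
Zc3h6: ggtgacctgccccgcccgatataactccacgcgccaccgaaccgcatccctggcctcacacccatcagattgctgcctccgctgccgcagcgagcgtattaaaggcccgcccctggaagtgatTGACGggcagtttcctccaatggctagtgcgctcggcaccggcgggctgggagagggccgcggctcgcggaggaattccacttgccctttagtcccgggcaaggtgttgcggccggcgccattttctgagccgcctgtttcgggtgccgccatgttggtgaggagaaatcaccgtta
Napepld is read from chr5:21701573-21701872 on the minus strand and holds none of the motifs searched.
Napepld: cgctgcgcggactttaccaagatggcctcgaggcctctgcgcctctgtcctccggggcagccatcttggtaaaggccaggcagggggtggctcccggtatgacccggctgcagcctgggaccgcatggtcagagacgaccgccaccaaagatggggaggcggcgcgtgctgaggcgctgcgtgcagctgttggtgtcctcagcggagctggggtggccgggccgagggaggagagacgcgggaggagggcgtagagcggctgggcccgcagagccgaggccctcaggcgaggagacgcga

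The motifs were counted on both strands in every window of the table, and a gene was counted when any of its windows held one. Of the 146 genes that rose, 116 had a window, and 69 of them (59.5%) held a short element, against 3 of 16 fallen genes (18.75%), 3652 of 10683 tested genes (34.2%) and 6228 of all 27025 genes in the table (23.0%). The full element TGACGTCA, which contains both short elements, was found for 12 of the 116 (10.3%), against 3.40% of tested genes. The CArG box was found for 6 of the 116 (5.17%), against 1.55% of tested genes, and the AP-1 site TGANTCA for 12 (10.3%), against 6.26%. Risen genes had 161 windows for 116 genes, and counted per window the short element stood in 49.1% of their windows, against 29.5% of the windows of tested genes. A match is a description of letters in the window and does not show that a factor binds there.

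Most genes on the list named CREB targets with a cAMP response element rose in the mice that carried the inhibitor. Of 31 tested, 23 rose and 0 fell, with a list median of 2.08 log2, and 29 were higher in both pairs. Over all genes tested, 1.10% rose and 24.8% were higher in both pairs. Like the other lists, this one was drawn up with earlier results of these data known. Of its 23 risen members, 18 had a promoter in the table. A short element was held by 15 of the 18 (83.3%) and the full one by 3 (16.7%). The shares over tested genes were 34.2% and 3.40%. Inhba, Gadd45g and Gadd45b, all risen members of the list, held neither. Many of its risen members, such as Fos, Ptgs2 and Bdnf, are also on the immediate-early or synaptic lists, so its count is not independent of theirs. Rgs2, which shortens signalling through Gq-coupled receptors, had 11269.6 and 11024 in A-CREB kainate mice, against 2125 and 2113 in A-CREB saline mice, a rise of 2.38 log2 (SE 0.21, adjusted p = 3.30e-05). Bdnf, a neurotrophin, had 4175 and 5978 after kainate, against 1069 and 1032 after saline (2.23 log2, SE 0.21, adjusted p = 4.39e-05). Ptgs2, the inducible enzyme of prostaglandin synthesis, had 4561 and 6297 after kainate, against 490.3 and 502 after saline (3.38 log2, adjusted p = 1.13e-05). In all 3 genes the saline pools were nearly equal, and both kainate pools were several times brighter. Crem, whose inducible form represses cAMP response element genes, had 1067 and 1457 after kainate, against 468 and 627 after saline (1.17 log2, adjusted p = 0.00952), and it was not called without the block (adjusted p = 0.165). Without the block 15 of the 31 rose, and 17 to 22 rose when 1 array was left out. Among 23 genes of the CREB family, its coactivators and cAMP signalling, Crem and Atf4 rose, and the list median was -0.00 log2. Neither was called without the block.

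Of 31 synaptic and secreted activity-regulated genes tested, 10 rose and 21 did not pass, with a list median of 0.62 log2. The share risen over all genes tested was 1.10%. Homer1, a postsynaptic scaffold whose short form is induced by activity (chr13:93303757-93405129), had 11377 and 14007 in A-CREB kainate mice, against 1465 and 1152 in A-CREB saline mice, a rise of 3.26 log2 (SE 0.32, adjusted p = 6.74e-05). Its 6 tested probe sets did not move alike, since another gave 3.16 log2 and the remaining 4 gave 0.88, 0.16, -0.03 and -0.04 log2. Pcdh8, an activity-regulated protocadherin of the synapse, had 16254 and 16259.5 after kainate, against 3720.3 and 4715 after saline, and rose by 1.95 log2 with a small error (SE 0.13, adjusted p = 4.55e-06). Inhba, the activin A subunit, had 1720.0 and 3187 after kainate, against 233 and 117 after saline (3.65 log2, SE 0.43, adjusted p = 0.000339). Its groups were far apart, although the 2 arrays of each group were less alike than those of Pcdh8. Arc, which drives removal of AMPA receptors from the synapse, had 7801 and 4669.7 after kainate, against 1494 and 359.9 after saline (2.99 log2, SE 0.43, adjusted p = 0.00181). Nptx2, a secreted pentraxin that clusters AMPA receptors, had 3223 and 2749 after kainate, against 766 and 139 after saline (3.08 log2, SE 0.53, adjusted p = 0.00752). For both genes the saline pool numbered 2 was much dimmer than the one numbered 1, yet the groups did not overlap. Arc lost its call without the block (adjusted p = 0.112) and without A-CREB kainate replicate 1 (adjusted p = 0.0515). Nptx2 lost its call without the block (adjusted p = 0.253), without A-CREB kainate replicate 1 (0.0525), without A-CREB kainate replicate 2 (0.183) and without A-CREB saline replicate 2 (0.0530). Of the 31, 5 rose without the block, and 6 rose without either kainate array, 11 without A-CREB saline replicate 1 and 8 without A-CREB saline replicate 2.

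Of 20 MAP kinase phosphatases and growth factor brakes, which damp signalling in stimulated cells, 6 rose and 14 did not pass. The list median was 0.23 log2, with 10 members higher and 3 lower in both pairs. Of all genes tested, 1.10% rose, 24.8% were higher in both pairs and 32.6% lower. Errfi1, an inhibitor of the EGF receptor, had 11318 and 9378 in A-CREB kainate mice, against 1765 and 1979 in A-CREB saline mice (2.45 log2, SE 0.20, adjusted p = 2.23e-05). Dusp1, which dephosphorylates MAP kinases in the nucleus, had 7928 and 5107 after kainate, against 1379 and 1478 after saline (2.14 log2, adjusted p = 0.000235). Dusp4 rose by 1.49 log2, Dusp5 by 1.98, Dusp6 by 1.38 and Spry2, a Sprouty protein, by 0.97, and the last 3 did not pass without the block (adjusted p = 0.116, 0.255 and 0.744). Without the block and without A-CREB kainate replicate 1 alike, 3 of the 20 rose. 

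Small GTPases and G-protein regulators gave 9 rises among 19 tested, with a list median of 0.81 log2, where 1.10% of all genes rose. Gem, a GTPase that lowers calcium channel activity, had 768 and 775 in A-CREB kainate mice, against 136 and 84.2 in A-CREB saline mice (2.61 log2, adjusted p = 0.000109). Rgs4, which shortens signalling by Gi and Gq proteins, had 11035 and 9695 after kainate, against 3478 and 3207 after saline (1.62 log2, SE 0.14, adjusted p = 3.30e-05). Both showed kainate pools well clear of the saline pools. Rheb, which activates mTORC1, had 11581 and 14394 after kainate, against 6786 and 7918 after saline (0.81 log2, adjusted p = 0.00167). Rgs16, another regulator of G proteins, had 479.5 and 953 after kainate, against 177 and 513 after saline, so its groups overlapped while both pairs were higher after kainate (1.10 log2, adjusted p = 0.00697, 0.9999 without the block). Rasl11a, Rasl11b, Rasd1 and Rnd3 were the other rises of the list. Without the block 3 of the 19 rose, and 4 rose without A-CREB kainate replicate 1, 5 without A-CREB kainate replicate 2 and 6 without A-CREB saline replicate 1.

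Inducible kinases gave 4 rises among 14 tested, with a list median of 0.67 log2, where 1.10% of all genes tested rose. Pim1, a constitutively active serine/threonine kinase, had 450.3 and 645 in A-CREB kainate mice, against 88.5 and 127 in A-CREB saline mice (2.13 log2, adjusted p = 0.000114). Plk2, a polo-like kinase that weakens synapses after prolonged activity, had 7425 and 6966 after kainate, against 3005 and 3866 after saline (1.07 log2, adjusted p = 0.00731). Pim3 rose by 1.19 log2 and Sgk1, a kinase that steroids and activity induce, by 0.99 log2. These calls depended on the arrays and the block, since 0 of 14 passed without the block (adjusted p = 0.0624 for Pim1), 1 without A-CREB kainate replicate 1, and 2 without A-CREB kainate replicate 2 or without A-CREB saline replicate 1.

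Lists of genes that limit growth or shorten mRNA life held 2 and 3 rises, of uneven size, where 1.10% of all genes tested rose. Gadd45g and Gadd45b, stress sensors that promote DNA demethylation, were the 2 rises among 14 growth arrest and p53 targets, whose median was 0.22 log2. Gadd45g had 6588 and 4837 in A-CREB kainate mice, against 690.4 and 667 in A-CREB saline mice (3.02 log2, adjusted p = 0.000102). Gadd45b had 3471 and 2755 after kainate, against 561 and 349 after saline (2.74 log2, adjusted p = 0.000121). Both Gadd45 genes passed also without the block. Of 11 mRNA decay and antiproliferative genes, Btg2, Zfp36 and Noct rose, with a list median of 0.39 log2. Btg2, which recruits the deadenylase complex, had 5654 and 2610.1 after kainate, against 499 and 683 after saline (2.67 log2, adjusted p = 0.00266), and it lost its call without the block (adjusted p = 0.0614) and without A-CREB kainate replicate 1 (adjusted p = 0.0795). Zfp36, which binds AU-rich elements, rose by 1.18 log2 and Noct, a circadian deadenylase homologue, by 0.58 log2, the smallest rise of all 146. None of the 3 passed without the block or without A-CREB kainate replicate 1.

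Chromatin and clock genes showed single members that moved. Cenpa, the centromeric histone H3 variant, had 843 and 868 in A-CREB kainate mice, against 163 and 153 in A-CREB saline mice, a rise of 2.28 log2 (SE 0.17, adjusted p = 8.56e-06) that also passed without the block (adjusted p = 0.000849). Kdm6b, a histone H3 lysine demethylase, had 1057 and 2530.3 after kainate, against 523 and 989 after saline (1.16 log2, adjusted p = 0.00952), where both groups were dimmer on arrays numbered 1 and the call was lost without the block (adjusted p = 0.9999). These were the 2 rises among 23 histones and chromatin enzymes, whose median was 0.11 log2, where 1.10% of all genes tested rose. Of 19 clock genes, Nfil3 and Per1, a period repressor of the clock, rose, Per1 by 0.81 log2 (1273 and 1353 after kainate, against 762 and 714 after saline, adjusted p = 0.0461, 0.577 without the block). Neat1, a long noncoding RNA that builds paraspeckles and is on no list, had 635 and 627 after kainate, against 114 and 52.8 after saline (2.69 log2, adjusted p = 0.000764, 0.118 without the block), while its other tested probe set gave 0.65 log2.

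Some chaperone genes passed, and their rises were small. Over all genes tested, 1.10% rose and 24.8% were higher in both pairs. Of 20 cytosolic heat shock chaperones, 3 rose and 15 were higher in both pairs, with a list median of 0.29 log2. Dnajb1, an HSP40 co-chaperone, had 5160.0 and 4016 in A-CREB kainate mice, against 1776 and 1884 in A-CREB saline mice (1.31 log2, adjusted p = 0.0241). Dnajb4, its close relative, rose by 0.95 log2 and Hsph1, an HSP110 nucleotide exchange factor, by 0.64 log2. Of 21 endoplasmic reticulum chaperones and stress genes, Hspa5 and Atf4 rose and 15 were higher in both pairs, with a list median of 0.25 log2. Hspa5, the main chaperone of that compartment, had 12349 and 11839 after kainate, against 6812 and 7266 after saline (0.78 log2, adjusted p = 0.0296). Without the block 0 genes of either list passed, and 0 passed without A-CREB kainate replicate 1 or without A-CREB kainate replicate 2.

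Neuropeptide and granin genes gave 5 rises among 25 tested, with a list median of 0.26 log2, where 1.10% of all genes rose. Crh, the precursor of corticotropin-releasing hormone, had 938 and 1631 in A-CREB kainate mice, against 281 and 343 in A-CREB saline mice (1.92 log2, SE 0.36, adjusted p = 0.0133). Scg2, secretogranin II, had 10611 and 10726 after kainate, against 4733 and 4485 after saline (1.21 log2, adjusted p = 0.00296). Pcsk1, a convertase that cleaves prohormones, had 533 and 608 after kainate, against 189 and 165 after saline (1.58 log2, adjusted p = 0.00329). Nts, the neurotensin precursor, rose by 0.90 log2 and Pnoc, the nociceptin precursor, by 0.92 log2. All 5 had kainate pools above saline pools without overlap, as did 12.9% of all genes tested. Of the 25, 0 passed without the block or without A-CREB kainate replicate 2, and 2 passed without A-CREB kainate replicate 1. Bdnf and Inhba were the rises among 18 growth factors and receptors, whose median was 0.12 log2.

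Of 22 cytokine, chemokine and NF-kappaB genes, 3 rose, with a list median of 0.37 log2. Nfkbiz, an inducible nuclear IkappaB protein, had 1851 and 1672 in A-CREB kainate mice, against 237 and 339.5 in A-CREB saline mice (2.54 log2, adjusted p = 0.000102). Socs3, which blocks JAK signalling, had 631 and 789 after kainate, against 91.0 and 206 after saline (2.18 log2, adjusted p = 0.000418). Tnfrsf12a, the receptor of TWEAK, had 507 and 259.7 after kainate, against 81.9 and 81.0 after saline (1.90 log2, adjusted p = 0.00528, 0.500 without the block). Without A-CREB kainate replicate 2 or without A-CREB saline replicate 1, 2 of the 22 passed. Injury and cytoskeletal genes gave 6 rises among 22, with 19 higher in both pairs and a list median of 0.56 log2. Of all genes tested, 1.10% rose and 24.8% were higher in both pairs. Ccn1, a secreted matricellular protein, had 3379 and 1851 after kainate, against 186 and 295 after saline (3.30 log2, adjusted p = 0.000364). Its relative Ccn2 rose by 1.05 log2, the tubulin gene Tubb6 by 2.32, the tropomyosin gene Tpm4 by 0.84 and Vcl, the vinculin gene of focal adhesions, by 0.82. The other tested probe set of Tubb6 gave -0.35 log2. Ccn1 alone of the 6 passed without the block, and 1 of the 22 passed without A-CREB kainate replicate 1, 2 without A-CREB kainate replicate 2 and 3 without A-CREB saline replicate 1.

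Receptors and channels that set excitability did not pass in either direction. There were 0 calls among 21 ionotropic glutamate receptor genes (median -0.11 log2), 9 GABA-A receptor subunits (-0.14), 37 potassium channels (-0.14) and 22 calcium, sodium and HCN channels (-0.15). Over all genes tested 1.10% rose and 0.166% fell, so lists of this size would hold few calls in any case. In the potassium channel list 19 of 37 genes were lower and 5 higher in both pairs, where 32.6% of all genes tested were lower and 24.8% higher. The nearest to the threshold was Kcng1, a modifier subunit, with 327 and 204 in A-CREB kainate mice, against 719.7 and 428 in A-CREB saline mice (-1.04 log2, adjusted p = 0.0773). Kcnf1, another modifier subunit, went the other way, with 1303 and 1093 after kainate, against 804 and 552 after saline (0.82 log2, adjusted p = 0.0794). Of 39 Notch, Wnt and BMP signalling genes Bmp2 rose, a ligand of the BMP family, with 406 and 487 after kainate, against 162 and 167 after saline (1.32 log2, adjusted p = 0.00620, 0.157 without the block). Of 19 genes of cholesterol synthesis, Pmvk, a kinase of the mevalonate pathway, rose by 0.79 log2, and the list median was 0.28 log2. Bmp2 did not pass without A-CREB kainate replicate 1 or without A-CREB kainate replicate 2, and Pmvk passed when A-CREB saline replicate 1 was left out but not without any other array. None of 14 zinc finger and bHLH repressors passed (median 0.11 log2).

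**Figure D3:**
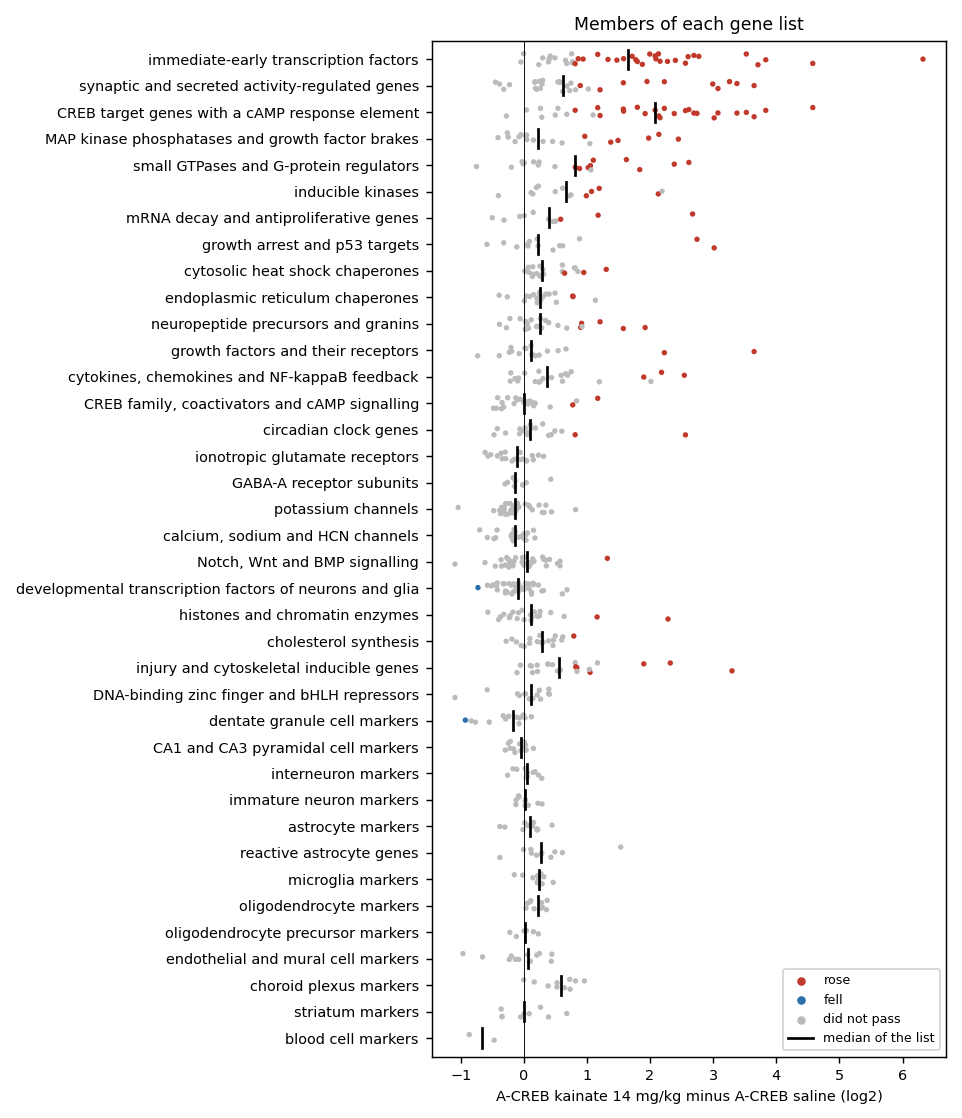
Change in A-CREB mice (kainate 14 mg/kg minus saline, log2) of every tested member of each gene list, with members that rose in red, members that fell in blue, members that did not pass in grey and the list median as a black bar. The CREB target genes and the immediate-early transcription factors have medians of 2.08 and 1.65 log2, while the receptor, channel and most cell type lists centre near 0.

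The 22 falls included receptors, regulators of transcription and membrane proteins. The groups did not overlap for 21 of them, and 15.9% of all genes tested had kainate pools lower without overlap. Insm1, a zinc finger factor of neuroendocrine differentiation (chr2:146221997-146225020), had 91.6 and 101 in A-CREB kainate mice, against 304 and 259 in A-CREB saline mice, a change of -1.36 log2 (SE 0.24, adjusted p = 0.00821), the largest fall. The other tested probe set of Insm1 gave -0.90 log2. Zc3h6, a CCCH zinc finger gene (chr2:128967402-129018563), had 188 and 300.1 after kainate, against 476 and 674 after saline (-1.18 log2, SE 0.21, adjusted p = 0.0101). Napepld, which makes N-acylethanolamines such as anandamide (chr5:21662901-21701622), had 137 and 128 after kainate, against 373 and 259 after saline (-1.11 log2, SE 0.25, adjusted p = 0.0447). In all 3 both kainate pools lay below both saline pools.

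Several of the falls encode receptors of different kinds, and they are given side by side without a list or a test of receptors as a class. Htr1a, the serotonin 1A receptor (chr13:105443693-105448133), had 370.5 and 283 in A-CREB kainate mice, against 681 and 625 in A-CREB saline mice (-0.96 log2, SE 0.18, adjusted p = 0.0167), although its other tested probe set gave 0.00 log2. Npy5r, a neuropeptide Y receptor, had 194 and 284 after kainate, against 429.5 and 510.3 after saline (-0.93 log2, adjusted p = 0.0162), while its other tested probe set gave -0.49 log2. Gpr12, an orphan receptor that raises cAMP, had 304 and 393 after kainate, against 645 and 682 after saline (-0.90 log2, adjusted p = 0.0169), and its other tested probe sets gave -0.88 and -0.44 log2. Oprl1, the nociceptin receptor, had 661 and 663 after kainate, against 1143 and 1147 after saline (-0.77 log2, adjusted p = 0.0161), with arrays of a group almost equal. The other tested probe sets of Oprl1 gave -0.63 and -0.44 log2. Its ligand gene, Pnoc, was among the rises. Ackr3, an atypical chemokine receptor, had 621 and 633 after kainate, against 1242 and 981 after saline (-0.80 log2, adjusted p = 0.0471). Adgrb3, an adhesion receptor bound by C1q-like proteins, had 2083 and 1979.5 after kainate, against 3289 and 3234 after saline (-0.68 log2, adjusted p = 0.0185). These 6 were put together after the values were seen, and none of them passed without the block.

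Among regulators of transcription, Cic, a repressor of growth factor target genes, had 870.2 and 765 in A-CREB kainate mice, against 1826 and 1454 in A-CREB saline mice (-0.98 log2, adjusted p = 0.0257). Arid4a, a retinoblastoma-binding protein, had 256 and 347 after kainate, against 646 and 569.6 after saline (-0.97 log2, adjusted p = 0.0251). Nr3c2, the mineralocorticoid receptor, had 1165 and 1758 after kainate, against 2050.1 and 2773 after saline (-0.73 log2, adjusted p = 0.0224), and it was the 1 call among 41 developmental transcription factors, whose median was -0.09 log2. In all 3 the higher kainate pool stayed below the lower saline pool. Tdo2, a tryptophan dioxygenase found in dentate granule cells, had 274 and 268 after kainate, against 475 and 603 after saline (-0.93 log2, adjusted p = 0.0342), while its other tested probe set gave -0.43 log2. Slitrk1, a synaptic adhesion protein, had 1357 and 1389 after kainate, against 2147 and 2271 after saline (-0.68 log2, adjusted p = 0.0461). Phyhip fell by 1.02 log2, Ccdc112 by 1.01, Zfp74 by 0.92, Pxylp1 by 0.91, Amer3 by 0.90, Rasl10a by 0.89 and Sowaha by 0.80. Runx1t1, a transcriptional corepressor, was the fall whose groups overlapped, with 369 and 937 after kainate, against 824 and 1310.0 after saline (-0.79 log2, adjusted p = 0.0497).

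**Figure D4:**
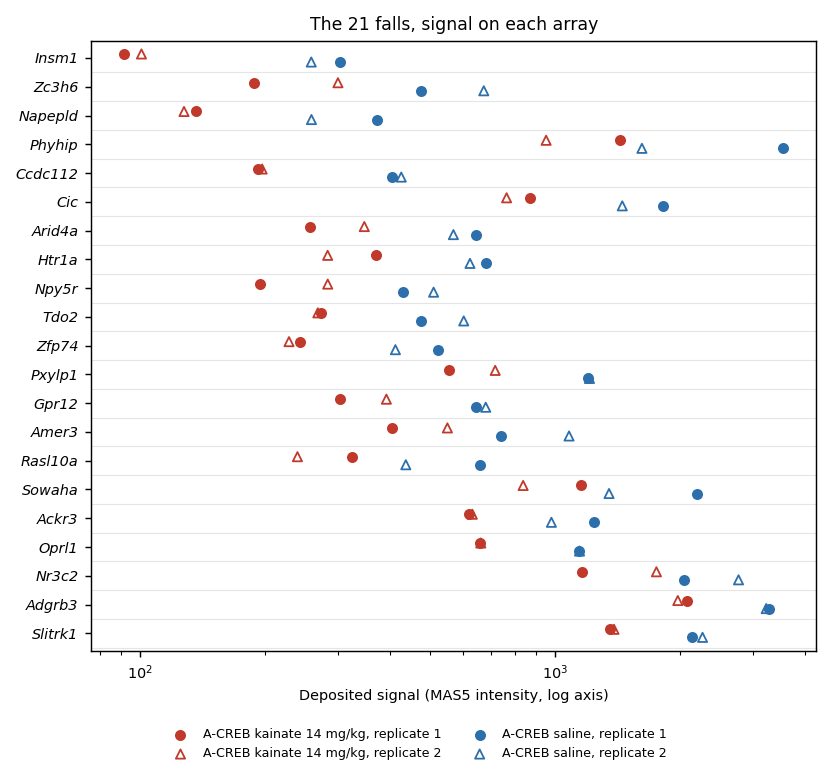
Deposited MAS5 signal (log axis) of the 21 genes that fell with no overlap between the groups, on each A-CREB kainate 14 mg/kg array (red) and each A-CREB saline array (blue), with circles for replicate 1 and triangles for replicate 2. Red points lie to the left of blue points in every row, by less than a factor of 2 in most, as with Slitrk1 at 1357 and 1389 after kainate, against 2147 and 2271 after saline.

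None of the 21 passed without the block, where their adjusted p ran from 0.115 to 0.966. With the probe sets of each gene averaged, 12 of the 21 passed. Leaving out A-CREB kainate replicate 1 kept 0 of the 21 past the threshold, and leaving out A-CREB kainate replicate 2 kept Zc3h6. Without A-CREB saline replicate 1, Zc3h6, Tdo2 and Amer3 passed, and without A-CREB saline replicate 2, 9 of the 21 passed. The direction of all 21 was the same under each of these settings.

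Markers of the cell types that the dissection could hold were compared in the same fit. Of 14 dentate granule cell markers tested, Tdo2 fell and none rose, with a list median of -0.17 log2, and 0 of 15 CA1 and CA3 pyramidal cell markers passed (median -0.05 log2). Summed signals of the dentate list were 15876 and 17365 in A-CREB kainate mice, against 18830 and 18655 in A-CREB saline mice. Granule cell transcripts were thus present in every pool, and the kainate pools held the lower sums. In the immature neuron, astrocyte, oligodendrocyte and endothelial lists both kainate sums instead lay above both saline sums. Those of the oligodendrocyte list were 109506 and 99234 after kainate, against 91936 and 93983.5 after saline. There were 0 calls among 12 interneuron markers (median 0.04), 10 immature neuron markers (0.02), 12 astrocyte markers (0.10), 11 reactive astrocyte genes (0.28), 13 microglia markers (0.23), 10 oligodendrocyte markers (0.22), 6 oligodendrocyte precursor markers (0.02), 13 endothelial and mural markers (0.06), 9 striatal markers (0.00) and 2 blood cell genes (-0.67). Choroid plexus markers had the highest median of these lists, 0.58 log2, with 0.26 in the pair numbered 1 and 1.04 in the pair numbered 2, and 0 of 10 passed. Of the 10, 8 were higher and 0 lower in both pairs, where 24.8% of all genes tested were higher and 32.6% lower. Their summed signals were 41436 and 32946 after kainate, against 34458 and 27605 after saline. The sum was higher after kainate in both pairs, although the groups overlapped. Microglia sums were 29288 and 23342 after kainate, against 20369 and 25341 after saline, and overlapped too. Lcn2, a secreted protein of reactive astrocytes, was the nearest of these lists' genes to a rise, with 437 and 394 after kainate, against 158 and 104 after saline (1.53 log2, adjusted p = 0.0661). With 1.10% of all genes tested risen and 0.166% fallen, few calls would be expected in marker lists of this size. The part of these cell types in the rises and falls was not tested.

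The question put to the wild-type arrays was whether the response to 14 mg/kg differed where the inhibitor was absent. The A-CREB comparison and the wild-type comparison share no arrays, and the difference between the 2 responses passed for 0 of 13248 genes in either direction in limma's test with the block, with a smallest adjusted p of 0.9998. Unadjusted p-values under 0.05 were found for 477 of 13248 genes, and for 95 without the block, both below the 662.4 expected if no gene differed. The standard error of the difference had a median of 0.27 log2. Summed signals of the 9 striatal markers were 5632 and 19497.5 in wild-type kainate mice, against 5052 and 8116 in wild-type saline mice. The wild-type kainate pool numbered 2 was thus much brighter in these markers, and it enters every wild-type change given here. The part of striatal transcripts in the differences was not tested. A count below the expected one, or a difference that misses the threshold, does not show that the responses were alike. In wild-type mice 84 genes (0.634%) rose and 11 (0.0830%) fell, and 76 genes rose in both, which is 52.1% of the A-CREB rises and 90.5% of the wild-type rises, while 0 of the 22 A-CREB falls passed in wild type. Over the 146, which were chosen on the A-CREB response, the median change was 1.38 log2 in A-CREB mice and 1.05 log2 in wild-type mice, and over the 22 it was -0.92 log2 in A-CREB mice and -0.36 log2 in wild-type mice. Since the choice itself favours the A-CREB values, these medians are a description. The CREB target list had 23 of 31 genes risen in A-CREB mice (median 2.08 log2) and 20 of 31 in wild-type mice (median 1.72 log2).

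Single genes show how the responses stood side by side. Npas4 rose by 6.32 log2 in A-CREB mice and by 5.53 log2 in wild-type mice, where it had 10106 and 11054 after kainate, against 251 and 169.6 after saline. Fos rose by 3.52 log2 in A-CREB mice and by 3.26 in wild-type mice, and Bdnf by 2.23 in A-CREB mice and by 2.22 in wild-type mice. Atf3 rose by 3.83 log2 in A-CREB mice and by 4.62 log2 in wild-type mice, and Cenpa by 2.28 in A-CREB mice and by 2.84 in wild-type mice. The A-CREB response minus the wild-type response was 0.79 log2 for Npas4 (SE 0.33), 0.27 for Fos (SE 0.25), 0.00 for Bdnf (SE 0.29), -0.78 for Atf3 (SE 0.48) and -0.56 for Cenpa (SE 0.24), none past the threshold. Crh gave 1.92 log2 in A-CREB mice and 0.05 log2 in wild-type mice, where its signals were 784 and 508 after kainate, against 820.3 and 450.3 after saline, so that its groups overlapped in wild type. Bmp2 gave 1.32 log2 in A-CREB mice and -0.08 log2 in wild-type mice. Their differences of 1.87 log2 (SE 0.51) and 1.40 log2 (SE 0.31) did not pass after adjustment (adjusted p = 0.9998 for both).

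**Figure D5:**
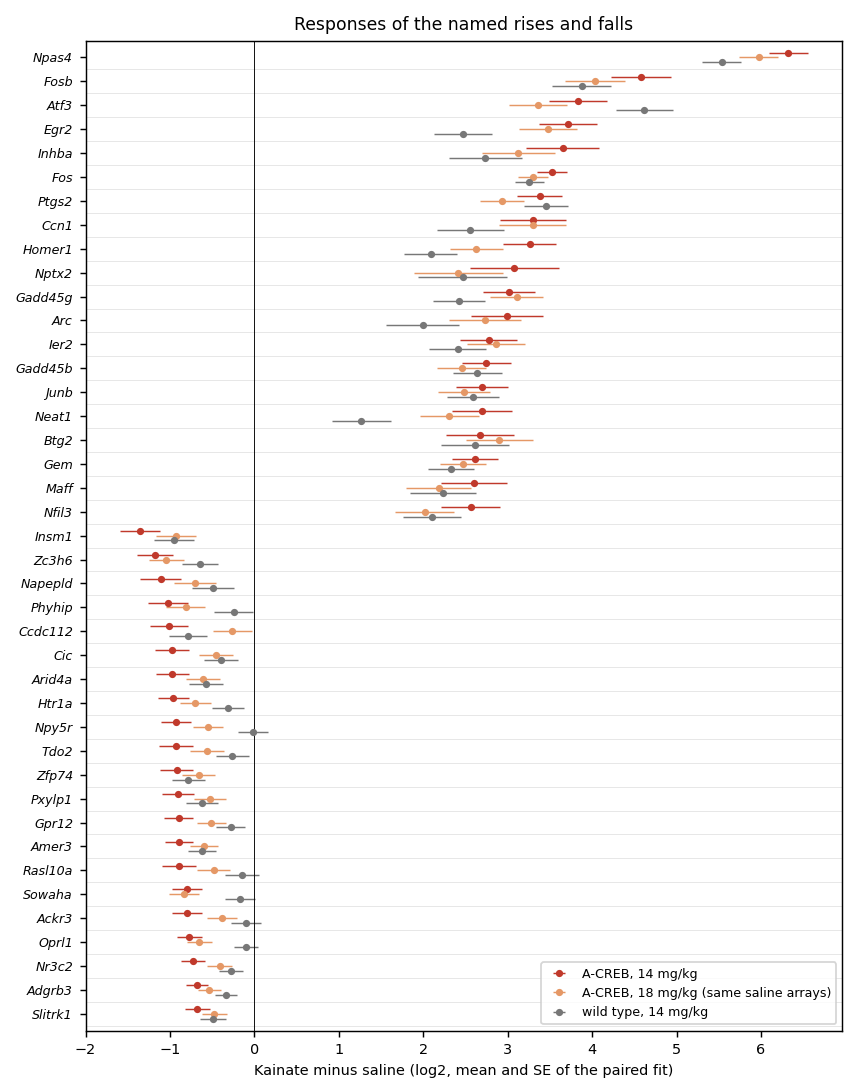
Change after kainate (kainate minus saline, log2, points for the estimate and bars for the standard error of the paired fit) in A-CREB mice at 14 mg/kg (red), A-CREB mice at 18 mg/kg against the same saline arrays (orange) and wild-type mice at 14 mg/kg (grey), for the 20 largest rises and the 21 falls without overlap in A-CREB mice at 14 mg/kg. For the rises the estimates of both genotypes lie on the same side of 0, as for Npas4 at 6.32 in A-CREB mice and 5.53 in wild-type mice, and the difference between A-CREB and wild type at 14 mg/kg passed for none.

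The arrays of A-CREB mice given 18 mg/kg were set against the same A-CREB saline arrays, so their values are given beside those at 14 mg/kg and not compared with them. At 14 mg/kg 146 genes rose and 22 fell, and at 18 mg/kg 90 (0.679%) rose and 3 (0.0226%) fell. Npas4 rose by 6.32 log2 at 14 mg/kg and by 5.97 at 18 mg/kg, and Fosb by 4.58 at 14 mg/kg and 4.03 at 18 mg/kg. Fos rose by 3.52 log2 at 14 mg/kg and by 3.30 at 18 mg/kg, and Homer1 by 3.26 at 14 mg/kg and 2.63 at 18 mg/kg. The CREB target list had 23 rises and a median of 2.08 log2 at 14 mg/kg, and 21 rises and a median of 1.92 log2 at 18 mg/kg. Among the falls, Zc3h6 changed by -1.18 log2 at 14 mg/kg and by -1.04 log2 at 18 mg/kg (adjusted p = 0.0358). Insm1 changed by -1.36 log2 at 14 mg/kg and gave -0.93 log2 at 18 mg/kg, where it did not pass (adjusted p = 0.142).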

How the data were processed

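Hippocampal RNA pools on Affymetrix Mouse Genome 430 2.0 arrays were measured in 5 groups of 2 arrays, grouped by their titles. The deposited values are the authors' intensity per probe set, made with MAS5 in GCOS per the submitters' processing notes, with versions not given in the sources used here. Precision is limited by having 2 arrays a group.

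Of 45101 probe sets, 64 controls were left out, and 34945 named 1 gene, 932 several and 9160 none in the platform's annotation table. The 22 added before taking log2 is the 20th percentile of all signals (22.2) and lowers the fold of dim genes. Probe sets in the upper 60% by mean over all arrays were tested (27023, of which 23674 named 1 gene), and the probe set with the highest mean stood for each of 13248 genes. Of 79 called genes with several tested probe sets, 9 had one of opposite sign, and 0 of those passed.

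All arrays were fitted with limma 3.58.1 in R 4.3.3 (lmFit, eBayes with an intensity trend), with the replicate number as a block. The fit left 4 residual degrees of freedom, and the variance trend over genes added a median of 9.68. Tests were two-sided, Benjamini-Hochberg adjusted over all genes, threshold 0.05. The pairing comes from the numbers in the titles: deviations of same-numbered arrays from their group means correlated at 0.523 to 0.648 in all 10 pairs of groups. The fit was tested on 5 runs of simulated data with 200 changed genes each. It found 78.2% of changes of 1 log2 and 98.2% of changes of 2 log2, with 15.4 false calls per run on average. False calls thus made up a larger share of all calls than the threshold of 0.05 allows. The simulated noise was drawn from the variances and replicate difference of the fit itself, so the test does not check those. Members, lists and named genes (the 20 largest rises and all falls without overlap, list members by smallest p, the smallest p for a difference from wild type, Creb1) were chosen with earlier results of these data known. Alternatives varied the pseudocount, filter, normalization, variance model, probe set rule, arrays fitted and block. Promoters were matched by symbol to RefSeq windows. Tables were handled with Python 3.11.15 and pandas 2.3.3. Genes with no probe set in the annotation table were not analysed here.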

Additional observations from a re-analysis of the deposited data

Results flagged for a closer look

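Changes of opposite direction in the 2 genotypes were found for 13 genes among the 16 with the smallest p for a difference between the A-CREB and the wild-type response, since both A-CREB pairs moved one way and both wild-type pairs the other. The same held for 1103 of all 13248 genes tested (8.33%), and the 16 were chosen for that difference, a choice that itself favours opposite signs. In limma's test of that difference none passed (adjusted p = 0.9998 for each). The A-CREB response minus the wild-type response was above 0 for Pdzrn3 (1.18 log2), Gbp2 (1.61), Col27a1 (1.77), Lrp8 (1.08), Grm3 (0.87) and Pcolce (1.21). It was below 0 for Zfas1 (-1.21 log2), C1ql2 (-1.14), Mctp1 (-1.01), Myo5b (-0.73), Col12a1 (-1.49), 1110038B12Rik (-0.89) and Dtx3 (-0.96).

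In 6 of the 13 the changes in both genotypes had an unadjusted p under 0.05, and in 7 at least 1 of them did not. Lrp8 counts as opposite with an A-CREB change of 0.04 log2 (SE 0.18), and 1110038B12Rik with -0.11 log2 (SE 0.18). C1ql2, a secreted synaptic organizer of dentate granule cells and mossy fibres, had 264 and 246 in A-CREB kainate mice, against 521 and 428 in A-CREB saline mice (-0.84 log2, adjusted p = 0.0514), and 811 and 697 in wild-type kainate mice, against 547 and 666 in wild-type saline mice (0.31 log2, unadjusted p = 0.130). Its wild-type pair numbered 2 differed by 0.06 log2, so the opposite direction of C1ql2 rests on a wild-type change that did not pass. Grm3, a metabotropic glutamate receptor, had 1438 and 1145 in A-CREB kainate mice, against 1023 and 636 in A-CREB saline mice (0.65 log2, adjusted p = 0.0526), and 1310.2 and 1013 in wild-type kainate mice, against 1534 and 1173 in wild-type saline mice (-0.22 log2, unadjusted p = 0.173).

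Probe sets without a single named gene were left out of the comparisons above. In a fit over all 27023 tested probe sets, chosen after seeing the data, 18 of the 3349 such probe sets rose in A-CREB mice at 14 mg/kg and 0 fell (limma, adjusted p under 0.05). The share of all 27023 called in that fit is not given here, so the count is not read as many or few. In the main fit, with 1 probe set a gene, 1.10% of genes rose and 0.166% fell.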

How the results depend on the processing

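With a pseudocount of 5.5 or 88, quantile or cyclic loess scaling, the upper 40% of probe sets, no filter, robust variance, averaged probe sets of each gene, or no _s_at, _x_at and _a_at probe sets, 105 to 151 genes rose, against 146. The count moved to 56 with no intensity trend, 41 with no replicate block and 237 with the 4 arrays alone, a fit with 1 residual degree of freedom, and ran from 57 to 155 when 1 array was left out. The falls, 22 in the fit reported, numbered 6 with no filter, 14 with quantile and 13 with cyclic loess scaling, 2 with no intensity trend, 84 with the 4 arrays alone and 0 with no replicate block, and 2 to 110 when 1 array was left out. The pairing was kept as the fit reported because replicate numbers deviated together. Genes above or below the wild-type response numbered 0 under each alternative, except that leaving out 1 array gave 0 to 1 above and 0 to 1 below. Directions turned for genes that did not pass: with 1 array left out Gabra2 ran from -0.20 log2 (-0.17 without A-CREB saline replicate 2) to 1.05, Slc32a1 from -0.56 to 0.046 and Creb1 from -0.31 to 0.094, while Stmn1 gave -0.030 and the Car7 difference from wild type -0.51 without _s_at, _x_at and _a_at probe sets. The cause was not tested. Fewer genes passed where the block or the shared variance trend was dropped. With 2 pools a group, dim genes (7 risen genes had both saline signals under 100) rest on low saline signals. Of the 20 largest rises, Inhba (adjusted p = 0.108), Ccn1 (0.0876), Ier2 (0.0548), Nptx2 (0.306), Arc (0.203) and Btg2 (0.188) missed the threshold with robust variance, and Nfil3 (0.0532), Nptx2 (0.139), Arc (0.0768), Btg2 (0.0900) and Maff (0.0532) with no intensity trend.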

Other observations

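Of the 146 genes that rose in A-CREB mice at 14 mg/kg, 65 were on none of the pathway lists, and the groups below were put together after their values were seen, so they carry no test beyond that of each gene. Genes of brain energy supply were among them. Slc2a1, the glucose transporter of the blood-brain barrier, had 6627 and 6498 in A-CREB kainate mice, against 2921 and 3688 in A-CREB saline mice (0.99 log2, adjusted p = 0.00541). Slc16a1, a lactate and ketone transporter, had 4255 and 3468 after kainate, against 2197 and 2281 after saline (0.77 log2, adjusted p = 0.0168). Ppp1r3c and Ppp1r3g, subunits that direct a phosphatase to glycogen, rose by 0.84 and 1.68 log2, and Dio2, which makes active thyroid hormone, by 1.13 log2. In each of these 5 both kainate pools were above both saline pools, as they were for 12.9% of all genes tested. Without the block their adjusted p was 0.203 for Slc2a1, 0.303 for Slc16a1, 0.115 for Ppp1r3c, 0.149 for Ppp1r3g and 0.0585 for Dio2.

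A second set encodes proteins of vessels and the extracellular space. Apold1, an endothelial early response gene, had 1301 and 933 in A-CREB kainate mice, against 153 and 304 in A-CREB saline mice (2.24 log2, adjusted p = 0.000664). Adamts1, a secreted protease, had 1559 and 1222 after kainate, against 399 and 525 after saline (1.55 log2, adjusted p = 0.00946). Edn1, the endothelin 1 precursor, rose by 1.61 log2 and Plaur, the urokinase receptor, by 1.29 log2. The 13 endothelial and mural markers had 0 calls beside these rises, and a median of 0.06 log2. Without the block the adjusted p was 0.0360 for Apold1, 0.167 for Adamts1, 0.235 for Edn1 and 0.512 for Plaur. Larger rises outside the lists included Tmem252, a transmembrane protein gene (266 and 188 after kainate, against 23.5 and 18.1 after saline, 2.53 log2), Ifrd1, a transcriptional coregulator (5583 and 6006 after kainate, against 975 and 1097 after saline, 2.46 log2), and Tiparp, a mono-ADP-ribosyltransferase (3364 and 5064 after kainate, against 722 and 999 after saline, 2.25 log2).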
